A study of Mus with 21 samples.

Results

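The genes described here are 10 genes of neutrophil recruitment, chosen by symbol from the 18806 genes in the count files. They are the chemokine genes Cxcl1, Cxcl2, Cxcl3 and Cxcl5, the receptor gene Cxcr2, the growth factor gene Csf3 with its receptor gene Csf3r, and S100a8, S100a9 and Lcn2, which encode abundant neutrophil proteins. All 10 were found in every file and passed the filter on low counts in every fit. RNA-seq had been run on skin wounds of female wild-type (WT) C57BL/6 mice, 8 weeks old, 4 days after full-thickness punch wounds of 8 mm had been made on both sides of the back. Control wounds received no hydrogel scaffold. The other 6 groups received a GelMA (gelatin methacryloyl) hydrogel of pH 6.4, 7.4 or 8.4 that carried 200 ng of either acidic or basic fibroblast growth factor (aFGF or bFGF), and they are called 6.4-GelMA/aFGF to 8.4-GelMA/bFGF. Each of the 7 groups had 3 libraries from different mice, 21 libraries in all, and no group received a hydrogel without a growth factor, so the hydrogel and its growth factor cannot be told apart.

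Neutrophils are the first blood leukocytes to enter a skin wound in number. Keratinocytes, fibroblasts, endothelial cells and macrophages of injured skin release CXC chemokines that bind the receptor CXCR2 on neutrophils and guide them into the tissue, and neutrophils themselves make some of these chemokines. G-CSF, the product of Csf3, drives the production and survival of neutrophils through the receptor encoded by Csf3r. S100A8 and S100A9 form calprotectin, a metal-binding antimicrobial complex, and LCN2 (lipocalin 2, also called NGAL) binds bacterial siderophores. The last 3 proteins are stored or made by neutrophils and are also made by the epidermis of wounded skin. In whole wound tissue, fewer cells of a type and less RNA per cell cannot be told apart.

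Total counts were 34362558 to 37817833 per library. Values of one gene are given as CPM, its counts relative to the library total after scaling by the trimmed mean of M-values (TMM), and values of different genes are compared as FPKM, which is also per length. In FPKM averaged over the 21 libraries, S100a8 (5374 ± 2644, SD, n = 21) and S100a9 (5243 ± 2667) were the most abundant of the 10 genes, followed by Lcn2 (650.0 ± 312). The 4 chemokine genes came next, from Cxcl2 (394 ± 295) and Cxcl5 (297 ± 155) to Cxcl3 (216 ± 184) and Cxcl1 (138 ± 126). Csf3r (91.6 ± 37.8) and Cxcr2 (74.7 ± 36.6) lay lower, and Csf3 (24.0 ± 20.3) was lowest. Other neutrophil genes were present in every library, and the neutrophil surface marker Ly6g ranged from 0.441 to 44.8 CPM.

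One feature of the control group touches every comparison with it. Control replicates 1 and 3 were the lowest 2 of the 21 libraries in 9 of the 10 genes, whereas control replicate 2 ranked 13th to 20th from the lowest among the same 21 libraries. All 18 hydrogel libraries were above both control replicate 1 and control replicate 3 in these 9 genes. Cxcl1 was the exception, with control replicate 1 lowest and control replicate 3 ranked 7th. The share of all genes with this order of libraries was not counted, so it cannot be read as particular to the 10 genes. Results against control are therefore given with all 3 control libraries and without control replicate 2.

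**Figure D1:**
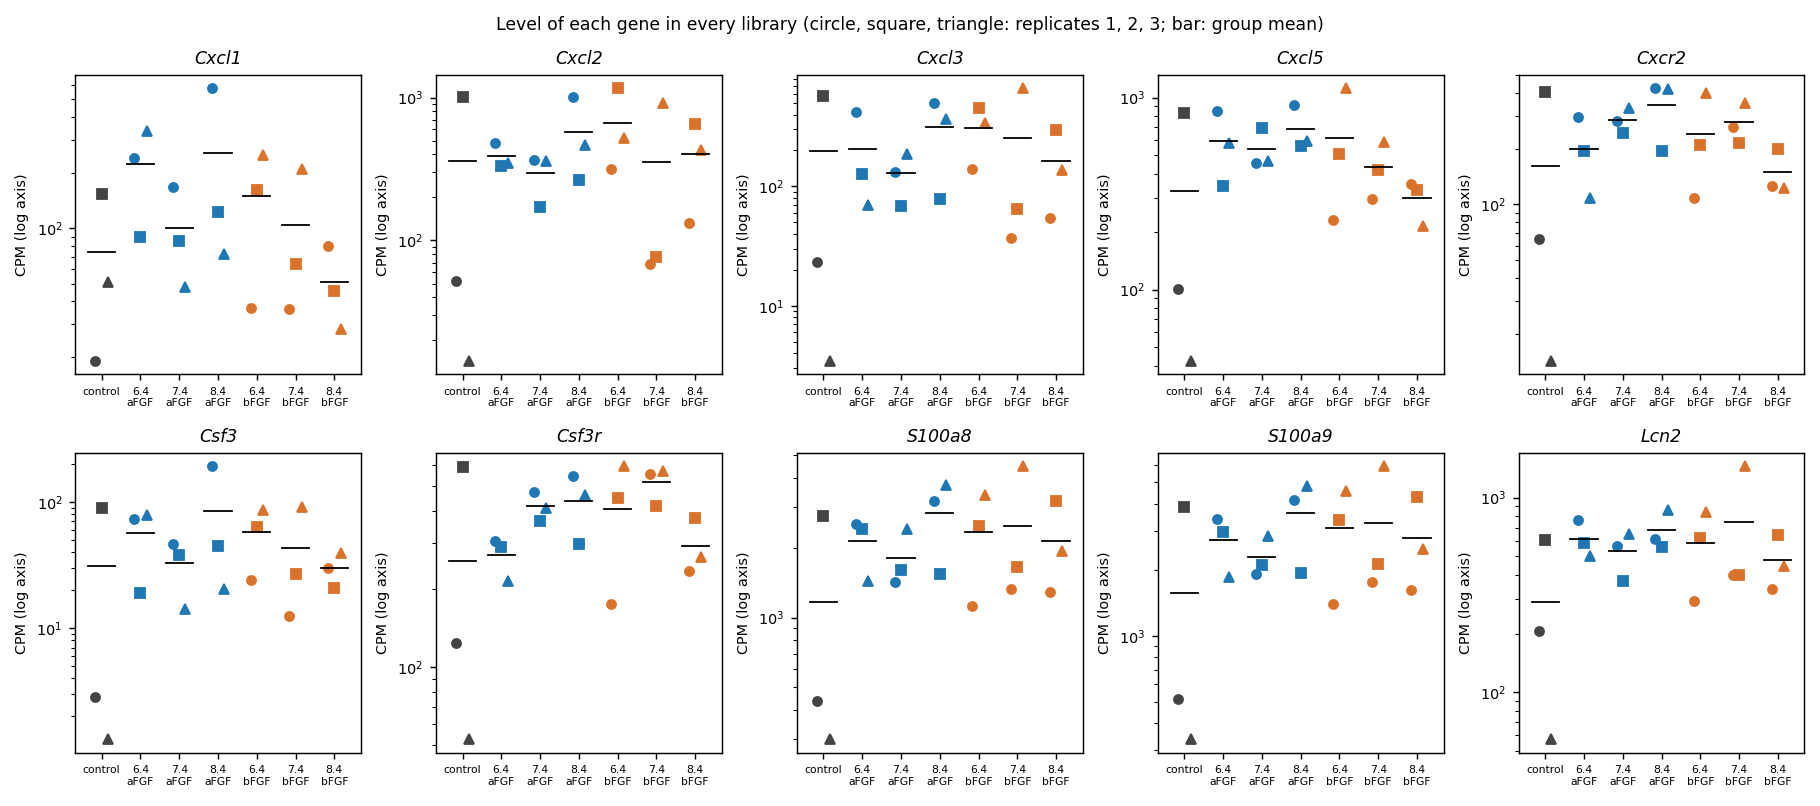
The level of each of the 10 genes in all 21 libraries, in CPM on a log axis, by group (control in grey, aFGF hydrogels in blue, bFGF hydrogels in orange). Circles, squares and triangles are replicates 1, 2 and 3 and bars are group means; control replicates 1 and 3 lie below all 18 hydrogel libraries in every panel but that of Cxcl1, and control replicate 2 lies among the hydrogel libraries.

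Cxcl1 and Cxcl2 encode the classical mouse CXCR2 ligands KC and MIP-2. Cxcl1 was at 19.1, 153 and 50.8 CPM in control replicates 1, 2 and 3. In the aFGF groups it was at 239, 89.5 and 336 CPM at pH 6.4, at 166, 85.4 and 48.0 at pH 7.4, and at 575, 122 and 72.2 at pH 8.4. In the bFGF groups it was at 36.7, 160.4 and 251 CPM at pH 6.4, at 36.3, 64.2 and 209 at pH 7.4, and at 79.6, 45.7 and 28.4 at pH 8.4. The group means of Cxcl1 ran from 256 CPM (8.4-GelMA/aFGF) and 222 (6.4-GelMA/aFGF) down to 51.2 (8.4-GelMA/bFGF), and the libraries of each group overlapped those of its neighbour in that order.

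Cxcl2 was at 52.3, 1011 and 14.4 CPM in control replicates 1, 2 and 3, a wider gap than for Cxcl1. In the aFGF groups it was at 478, 334 and 349 CPM at pH 6.4, at 365, 171 and 358 at pH 7.4, and at 1003, 263 and 468 at pH 8.4. In the bFGF groups it was at 318, 1163 and 520.4 CPM at pH 6.4, at 69.0, 76.4 and 909 at pH 7.4, and at 133, 651 and 431 at pH 8.4. Within the 7.4-GelMA/bFGF group, replicate 3 was therefore far above replicates 1 and 2, and every group overlapped its neighbours.

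Cxcl3, which encodes another CXCR2 ligand, was at 23.5, 569.9 and 3.47 CPM in the control libraries and at 37.3 to 665 (median 139) in the 18 hydrogel libraries. Its highest hydrogel value, like its lowest, was in the 7.4-GelMA/bFGF group. Cxcl5, a ligand that epithelial cells make (LIX), was at 101, 835 and 42.7 CPM in control replicates 1, 2 and 3. Among the aFGF groups it was at 848, 348 and 583 CPM at pH 6.4, at 458, 695 and 468 at pH 7.4, and at 913, 562 and 597 at pH 8.4. Among the bFGF groups it was at 229, 506 and 1120.0 CPM at pH 6.4, at 297, 422 and 588 at pH 7.4, and at 355, 331 and 215 at pH 8.4. At pH 8.4 all 3 aFGF libraries were above all 3 bFGF libraries in Cxcl5, and at pH 6.4 and 7.4 the growth factors overlapped.

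Cxcr2, the receptor that carries these signals into the neutrophil, was at 64.9, 402 and 14.4 CPM in control replicates 1, 2 and 3. With aFGF it was at 295, 195 and 109 CPM at pH 6.4, at 281, 242 and 329 at pH 7.4, and at 423, 194 and 417 at pH 8.4. With bFGF it was at 108, 210.2 and 398 CPM at pH 6.4, at 263, 213 and 354 at pH 7.4, and at 125, 199.8 and 123 at pH 8.4. With bFGF, all libraries of pH 8.4 were below all libraries of pH 7.4. At pH 8.4 the growth factors overlapped only in that the lowest aFGF library (194 CPM) was below the highest bFGF library (199.8 CPM).

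Csf3r was at 124, 593 and 52.7 CPM in control replicates 1, 2 and 3. With aFGF it was at 308, 289.7 and 215 CPM at pH 6.4, at 475, 366 and 412 at pH 7.4, and at 545, 299 and 463 at pH 8.4. With bFGF it was at 175, 449 and 595 CPM at pH 6.4, at 558, 417 and 571 at pH 7.4, and at 234, 376 and 266 at pH 8.4. The pH 7.4 libraries were thus above those of 6.4-GelMA/aFGF within the aFGF groups, and above those of 8.4-GelMA/bFGF within the bFGF groups. Csf3, the ligand gene, was at 2.85, 88.8 and 1.32 CPM in the control libraries and at 12.4 to 191 (median 38.4) in the 18 hydrogel libraries.

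S100a8 was at 436, 2750.3 and 299.8 CPM in control replicates 1, 2 and 3 and at 1124 to 4483 (median 2168) in the 18 hydrogel libraries. S100a9 was at 513, 3863 and 339 CPM in the control libraries and at 1392 to 5912 (median 2672) in the hydrogel libraries. Lcn2 was at 207, 606 and 57.5 CPM in the control libraries and at 294 to 1445 (median 574) in the hydrogel libraries. The highest value of each of these 3 genes was in 7.4-GelMA/bFGF replicate 3, and their lowest hydrogel value was in 6.4-GelMA/bFGF replicate 1.

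The first comparison set the 18 hydrogel libraries against the 3 control libraries. With all 3 controls, 0 of the 10 genes were called higher or lower, against 0.00632% of the 15811 genes tested. A call needed an adjusted p (Benjamini-Hochberg) under 0.05 in the quasi-likelihood test of edgeR and a log2 fold change beyond 0.58. All 10 log2 fold changes were positive, from 0.13 ± 1.01 (SE) for Cxcl3 to 1.05 ± 0.53 for Lcn2, with a median of 0.64 beside -0.02 over all genes tested. The smallest adjusted p in edgeR was that of Lcn2 (0.331). Of the 10 genes, 0 had an unadjusted p under 0.05 in edgeR, beside 16.7% of all genes, and DESeq2 also called 0 of them.

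On a log scale, where 1 high control library weighs less, the differences were larger. The mean log2 CPM of the hydrogel libraries exceeded that of the control libraries by 0.97 for Cxcl1 to 2.47 for Csf3. An exact permutation test over all 1330 ways to choose the control libraries gave an unadjusted p under 0.05 for 8 of the 10 genes, beside 6.77% of all genes in that direction. The p of this two-sided exact test was lowest for S100a8 and S100a9 (both 0.0105) and was over 0.05 for Cxcl1 (0.235) and Cxcl3 (0.0579). It treats the 6 hydrogel groups as one. The 10 genes varied together over the 21 libraries (adjusted permutation p under 0.05 for 45 of 45 pairs, median Pearson's r = 0.84). They also share the same control libraries, so the 8 genes are not separate observations. With an adjustment over all genes, limma on log2(FPKM + 1) called 0 of the 10, with adjusted p from 0.169 to 0.482.

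Without control replicate 2, 8 of the 10 genes were called higher by edgeR's quasi-likelihood test, against 3.62% of the 16069 genes then tested. Csf3 differed by 4.51 ± 1.09 on the log2 scale (SE, adjusted p = 0.0203), or 22.9-fold. Cxcl2 followed with 3.69 ± 1.08 (adjusted p = 0.0397) and Cxcl5 with 2.83 ± 0.56 (adjusted p = 0.00984). S100a9 (2.79 ± 0.59), S100a8 (2.62 ± 0.56), Cxcr2 (2.60 ± 0.60), Lcn2 (2.18 ± 0.58) and Csf3r (2.11 ± 0.41) had adjusted p from 0.00952 to 0.0281. The 2 genes not called were Cxcl3 (log2 fold change 4.02 ± 1.31, adjusted p = 0.0592) and Cxcl1 (1.88 ± 0.92, adjusted p = 0.195). Leaving out control replicate 1 or control replicate 3 instead gave 0 called genes and log2 fold changes of -0.27 and -0.30 for Cxcl2 and of -0.41 and -0.44 for Cxcl3. Every edgeR call of these genes against control thus rested on leaving out control replicate 2. That library was singled out after its values in these same genes had been seen. The calls and p-values of the fit without it, here and below, are therefore descriptions and no independent test.

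**Figure D2:**
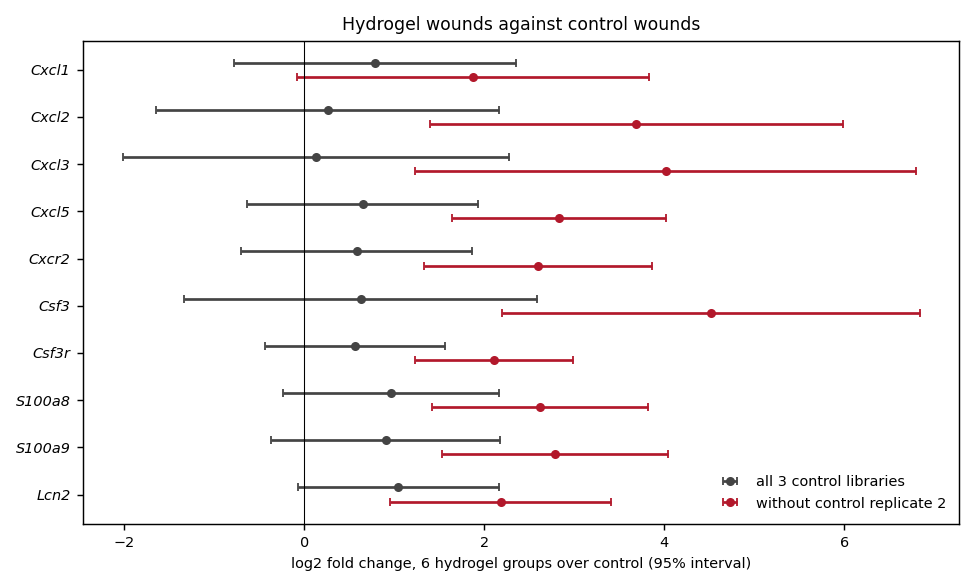
Log2 fold change of each gene between the 18 hydrogel libraries and control wounds, with its 95% interval, from the fit with all 3 control libraries (grey) and the fit without control replicate 2 (red). With all controls every interval includes 0, and without control replicate 2 every interval but that of Cxcl1 lies above 0. Control replicate 2 was singled out after its values in these genes had been seen.

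The control libraries differed in the same direction in neutrophil genes outside the 10. The summed level of 23 other neutrophil genes was 1239, 6126 and 1043 CPM in control replicates 1, 2 and 3, and 2295 to 6840 CPM in the hydrogel libraries. With all controls, 0 of these 23 genes were called against control by edgeR, 2 had an unadjusted p under 0.05, and their median log2 fold change was 0.65, while DESeq2 called 1. Without control replicate 2, 19 of the 23 were called higher, against 3.62% of all genes, with a median of 2.76. Among them were Clec4d (2.52 ± 0.38, adjusted p = 0.00358 in edgeR), a lectin receptor of myeloid cells, and Fpr1 (3.55 ± 0.57, adjusted p = 0.00386), the receptor for bacterial formyl peptides. Mmp8, the neutrophil collagenase, differed by 4.18 ± 0.95 (adjusted p = 0.0162). As a list, the 23 genes varied with most of the 10 genes whose values had singled out control replicate 2. Their calls without that library are therefore no independent support. Retnlg, the most abundant gene of the list in FPKM, was not called and was at 28.3, 226 and 4.52 CPM in the control libraries and at 38.4 to 916 CPM in the hydrogel libraries.

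Genes that induce or restrain the chemokines differed among themselves. The summed level of 18 such genes was 771, 4264 and 803 CPM in control replicates 1, 2 and 3 and 1083 to 4026 CPM in the hydrogel libraries. Il1b, which encodes the cytokine interleukin 1 beta and has the highest mean FPKM of the list, was at 155, 1795 and 48.9 CPM in the control libraries and at 185 to 1661 in the hydrogel libraries. Il17rc, a subunit of the interleukin 17 receptor, was instead at 41.6, 40.8 and 55.6 CPM in the control libraries and at 25.8 to 46.0 in the hydrogel libraries. Without control replicate 2, 7 of the 18 were called higher, against 3.62% of all genes, namely Il17ra, Il1b, Tnf, Il23a, Il1f9, Nfkbiz and Zc3h12a. Il1b then differed by 2.66 ± 0.74 (adjusted p = 0.0326 in edgeR) and Tnf by 2.30 ± 0.53 (adjusted p = 0.0167). With all controls 0 of the 18 were called, 1 had an unadjusted p under 0.05 in edgeR, and their median log2 fold change was -0.03.

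Markers of other wound cells were summed in the same way. The 8 macrophage markers summed to 4456, 4769 and 5187 CPM in control replicates 1, 2 and 3 and to 2644 to 6187 CPM in the hydrogel libraries. The 7 wound-edge keratinocyte markers (Krt6a, Krt6b, Krt16, Krt17, Sprr1b, Sprr2d and Stfa3) summed to 2465, 3612 and 2724 CPM in the control libraries and to 2192 to 4960 CPM in the hydrogel libraries. In these sums control replicates 1 and 3 lay within the hydrogel range. Of the single markers, Sprr2d was at 34.4 and 18.5 CPM in control replicates 1 and 3, below its lowest hydrogel value of 35.8. Cd68, a macrophage marker, was at 306 and 323 CPM in them, above its highest hydrogel value of 304. The remaining markers of both lists lay within the hydrogel range in these control libraries. The 4 adipocyte markers Adipoq, Plin1, Cidec and Lep summed to 2006, 122 and 1218 CPM in the control libraries and to 76.8 to 1157 CPM in the hydrogel libraries, and none of them was at 0 in any library. Control replicates 1 and 3, low in the neutrophil genes, were therefore the highest libraries in the adipocyte markers. Of these 4 markers, 0 were called with all controls and 2 (Adipoq and Plin1) were called lower in the hydrogel libraries without control replicate 2 by edgeR, against 3.78% of all genes. The 4 mast cell markers Cpa3, Cma1, Mcpt4 and Tpsb2 summed to 282, 221 and 315 CPM in the control libraries and to 103 to 238 CPM in the hydrogel libraries, so that control replicates 1 and 3 again lay above the hydrogel range, and 0 of them were called with all controls by edgeR although 4 had an unadjusted p under 0.05, beside 16.7% of all genes. Markers of basal and suprabasal keratinocytes, fibroblasts, endothelium, skeletal muscle, eosinophils, red cells and T and NK cells did not place both of these control libraries outside the hydrogel range on the same side. The part of tissue composition in the difference between control libraries was not tested.

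**Figure D3:**
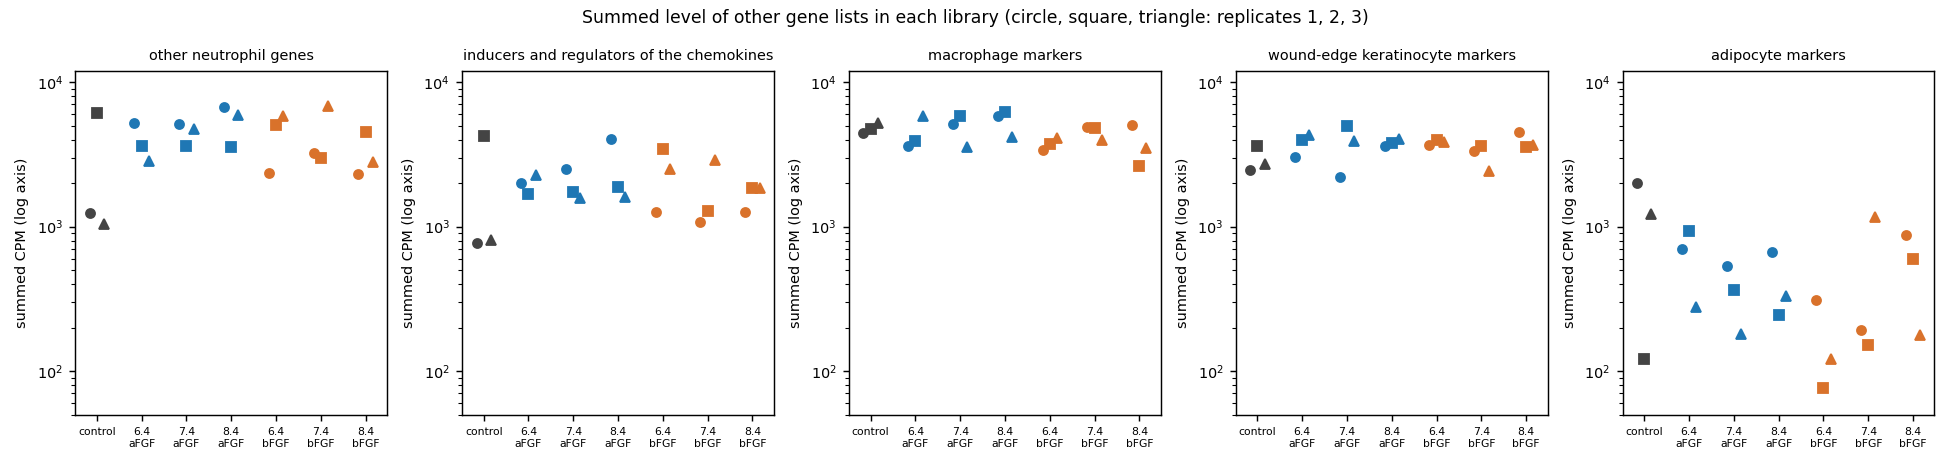
Summed CPM, on a log axis, of 5 lists of genes in each of the 21 libraries, by group and with replicates 1, 2 and 3 as circles, squares and triangles. Control replicates 1 and 3 are low in the summed levels of the other neutrophil genes and of the inducers and regulators of the chemokines, within the range of the other libraries in macrophage and wound-edge keratinocyte markers, and high in adipocyte markers.

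The study asked whether wound pH alters the action of aFGF and bFGF, so the hydrogel groups were compared with each other. Over all pH values, the 9 aFGF libraries against the 9 bFGF libraries gave 0 called genes of the 10, against 3.77% of the 15696 genes tested (1.8% higher and 1.98% lower with aFGF). Of the 10 genes, 5 had a positive and 5 a negative log2 fold change, with a median of -0.01, and 0 had an unadjusted p under 0.05 in edgeR, beside 29.9% of all genes. DESeq2 also called 0 of them. Cxcl1 had the largest value (0.96 ± 0.50, adjusted p = 0.212 in edgeR), with aFGF libraries at 48.0 to 575 CPM (median 122) and bFGF libraries at 28.4 to 251 CPM (median 64.2), and it was 0.48 without 8.4-GelMA/aFGF replicate 1. Cxcl5 differed by 0.49 ± 0.26 (adjusted p = 0.233 in edgeR), and without 6.4-GelMA/bFGF replicate 3 it was called at 0.73 (adjusted p = 0.0429). The signs depended on the scale. In mean log2 CPM only Csf3r was lower with aFGF (-0.05), and the other values were positive, from 0.004 (S100a9) to 0.93 (Cxcl1). The smallest p of the two-sided exact permutation test on that scale was 0.0707 (Cxcl5).

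Of the listed adhesion genes and inducers, 4 were called between the growth factors. Sele and Selp, which encode the E- and P-selectins on which neutrophils roll along vessel walls, were called higher with aFGF, against 1.8% of all genes, and the remaining 3 of 5 adhesion genes were not called. Sele was at 11.7 to 47.3 CPM (median 30.8) in the aFGF libraries and at 5.14 to 25.3 (median 10.4) in the bFGF libraries, a log2 fold change of 1.18 ± 0.31 (adjusted p = 0.0265 in edgeR). Selp was at 109 to 254 CPM (median 175) with aFGF and at 36.9 to 158 (median 76.1) with bFGF, a log2 fold change of 1.00 ± 0.27 (adjusted p = 0.0297 in edgeR). Both pairs of ranges overlapped. The calls were close to the threshold. That of Sele was lost without replicate 1 of 7.4-GelMA/aFGF, replicate 1 of 8.4-GelMA/aFGF, replicate 1 or 2 of 6.4-GelMA/bFGF or replicate 1 of 7.4-GelMA/bFGF (log2 fold change 0.96 to 1.14, adjusted p 0.0521 to 0.0633 in edgeR), and that of Selp without any 1 of 10 of the 18 libraries (adjusted p up to 0.0684 in edgeR). Selp was also not called in a fit of all 21 libraries (adjusted p = 0.0583 in edgeR) or without 3 libraries together (7.4-GelMA/aFGF replicate 3 and replicate 2 of both pH 8.4 groups, adjusted p = 0.0712 in edgeR).

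Il1a and Il23a, which encode the alarm cytokine interleukin 1 alpha and a subunit of interleukin 23, were called lower with aFGF, against 1.98% of all genes, and the remaining genes of the 18 inducers and regulators were not called. Il1a was at 7.28 to 26.8 CPM (median 16.2) with aFGF and at 9.42 to 127 (median 43.2) with bFGF, a log2 fold change of -1.77 ± 0.46 (adjusted p = 0.0246 in edgeR). Il23a was at 0.200 to 1.05 CPM with aFGF and at 0.353 to 3.90 with bFGF, a log2 fold change of -1.20 ± 0.37 (adjusted p = 0.0459 in edgeR). The call of Il1a was lost without replicate 3 of 6.4-GelMA/aFGF, replicate 1 of 7.4-GelMA/aFGF, replicate 2 of 8.4-GelMA/aFGF, replicate 2 of 6.4-GelMA/bFGF or replicate 3 of 8.4-GelMA/bFGF (log2 fold change -1.70 to -1.50, adjusted p 0.0521 to 0.0529 in edgeR) and in a fit of all 21 libraries (adjusted p = 0.0848 in edgeR). The call of Il23a was lost without any 1 of 15 of the 18 libraries (adjusted p of 0.0547 or more in edgeR). It was also lost in 5 other settings: with the replicate number as a block (-1.21, adjusted p = 0.0532 in edgeR), with no filter on low counts (-1.21, 0.0547), in a fit of all 21 libraries (-1.20, 0.152), without the same 3 libraries (-1.48, 0.0541), and with limma on log2(FPKM + 1) without a filter (-0.48, 0.0652), a scale that understates changes of low genes.

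At pH 8.4 the values of the 10 genes lay in 1 direction. Some of these genes varied together among libraries (given below), so they are not 10 separate observations of a direction. All 10 log2 fold changes of aFGF over bFGF were positive, from 0.37 ± 0.44 for S100a9 to 2.32 ± 0.81 for Cxcl1, with a median of 0.76 beside -0.01 over all genes tested. The value of Cxcl1 was 0.91 without 8.4-GelMA/aFGF replicate 1, its highest library. In edgeR 0 of the 10 genes were called, against 0.00665% of the 15041 genes, and 3 had an unadjusted p under 0.05, beside 21.1% of all genes. These were Cxcl5 (1.20 ± 0.26, adjusted p = 0.113 in edgeR), Cxcr2 (1.20 ± 0.34, adjusted p = 0.139) and Cxcl1 (adjusted p = 0.184). DESeq2 called Cxcl5 (1.19, adjusted p = 0.000637) and Cxcr2 (1.19, adjusted p = 0.0109), against 6.46% of the genes. Cxcl5 alone of the 10 did not overlap between the growth factors, with 14.9% of all genes higher without overlap in this comparison. With 3 libraries against 3, an exact permutation test cannot go below 0.1.

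At pH 6.4 and 7.4, 0 of the 10 genes were called between the growth factors by edgeR or DESeq2, where edgeR called 0% of 14994 and 0% of 15049 genes. At pH 6.4 the log2 fold changes of aFGF over bFGF ran from -0.79 (Cxcl2) to 0.57 (Cxcl1), and at pH 7.4 from -0.95 (Cxcl3) to 0.32 (Cxcl5). In each of these 2 comparisons 8 of the 10 values were negative and 0 had an unadjusted p under 0.05 in edgeR, beside 8.16% and 13% of all genes. The signs depended on the scale. In mean log2 CPM, Cxcl1, Cxcl2 (0.74), Cxcl3 (0.02), Cxcl5 and Cxcr2 were positive at pH 7.4 and the other genes negative. At pH 6.4 Cxcl5 was positive on that scale (0.14). Cxcl3 was at 37.3, 64.5 and 665 CPM in 7.4-GelMA/bFGF replicates 1, 2 and 3.

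Lower or higher pH was set against pH 7.4 within each growth factor, and 0 of the 10 genes were called in any of the 4 comparisons by edgeR, which called 0% of all genes in each, or by DESeq2. In 6.4-GelMA/aFGF against 7.4-GelMA/aFGF, the log2 fold change was -0.63 ± 0.17 for Csf3r and 1.16 ± 0.58 for Cxcl1 (adjusted p = 0.832 for both in edgeR). Csf3r was the only one of the 10 with an unadjusted p under 0.05 there, beside 4.99% of all genes, and the only one lower without overlap, beside 4.84% of all genes. In 6.4-GelMA/bFGF against 7.4-GelMA/bFGF, the values ran from -0.32 (Csf3r) to 0.97 (Cxcl2), and 0 had an unadjusted p under 0.05 in edgeR, beside 8.89% of all genes.

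In edgeR, the alkaline hydrogel gave mostly values of opposite sign with the 2 growth factors. Some of the 10 genes varied together among libraries (given below), so their signs, here and in the interaction below, are not separate observations. With aFGF, pH 8.4 against 7.4 gave 10 positive log2 fold changes of 10, from 0.05 (Csf3r) to 1.36 (Csf3), of which 0 had an unadjusted p under 0.05 in edgeR, beside 3.01% of all genes. With limma on log2(FPKM + 1) the lowest of these values was -0.03. With bFGF, 9 of the 10 were negative, from -0.97 (Cxcl1) to 0.26 (Cxcl2). In mean log2 CPM, Cxcl3 was also positive with bFGF (0.15) and Cxcl2 was at 0.99, while the other genes stayed negative. Csf3r (-0.79 ± 0.21) and Cxcr2 (-0.86 ± 0.26, adjusted p = 0.861 for both in edgeR) were the 2 genes with an unadjusted p under 0.05, beside 5.72% of all genes. They were also the 2 that were lower without overlap, beside 7.19% of all genes.

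The difference between these differences was tested as an interaction of growth factor and pH 8.4 against 7.4, a comparison added after the values had been seen. All 10 interaction values were positive in edgeR on the log2 scale, from 0.69 ± 1.33 for Cxcl2 to 2.33 ± 1.19 for Cxcl1. The value of Cxcl1 was 0.95 without 8.4-GelMA/aFGF replicate 1. With limma on log2(FPKM + 1) the lowest of the 10 values was -0.29, so the signs depended on the method. In edgeR 0 of the 10 were called, against 0% of the 15502 genes, every adjusted p was 0.993, and DESeq2 called 0. Cxcr2 (1.14 ± 0.43) and Csf3r (0.85 ± 0.33) had an unadjusted p under 0.05, beside 4.73% of all genes. The interaction with pH 6.4 against 7.4 gave values from -0.61 (Cxcl2) to 0.59 (Cxcl1), with 0 called, against 0% of the 15449 genes, and 0 with an unadjusted p under 0.05 in edgeR, beside 6.09% of all genes. Set against the other 6 groups, 6.4-GelMA/aFGF had log2 fold changes from -0.48 (Csf3r) to 1.05 ± 0.64 (Cxcl1, adjusted p = 0.909 in edgeR). Of the 10 genes, 0 were called there by edgeR, against 0% of the 15811 genes, or by DESeq2, and 0 had an unadjusted p under 0.05, beside 5.66% of all genes.

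With all libraries concerned, no comparison between groups called any of the 10 genes in edgeR. Libraries of one group differed widely, and some of the genes varied together among libraries. Since control replicates 1 and 3 stood apart, correlations of log2 CPM were computed in the 18 hydrogel libraries. Of the 45 pairs of genes, 24 had an adjusted permutation p under 0.05, all of them positive, and the median Pearson's r was 0.56. Libraries were permuted across the groups. With values of all 21 libraries centred on their group mean and permuted within groups, 34 of the 45 pairs had an adjusted p under 0.05. The share among pairs of other genes was not computed, so the count is not particular to these genes. S100a8 and S100a9 had the highest value (r = 0.997, Spearman's rho = 0.996, n = 18), and both varied with Lcn2 (r = 0.882 and 0.884). Permutation p was 1e-05 for these 3 pairs by r, the smallest that 100000 permutations can give, and 7.5e-05 after adjustment over the 45 pairs. Without the 2 libraries farthest from the median of the first gene, r was 0.995 for S100a8 with S100a9 and 0.829 for both with Lcn2.

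Among the chemokine genes, Cxcl2 varied with Cxcl3 (r = 0.895, rho = 0.932, permutation p = 1e-05 for both, adjusted p = 7.5e-05 for r, r = 0.893 without the farthest 2 libraries), and Cxcl3 varied with S100a9 (r = 0.861, rho = 0.792). Cxcl1 varied with Csf3 (r = 0.873, rho = 0.818, adjusted permutation p = 7.5e-05 for r, r = 0.807 without the farthest 2 libraries). It also varied with Cxcl5 (r = 0.819, rho = 0.800, adjusted permutation p = 0.00025 for r, r = 0.823 without the farthest 2 libraries). Lower values were r = 0.488 for Cxcl1 with Cxcl2 (rho = 0.461, adjusted permutation p = 0.0654) and 0.351 for Cxcl2 with Cxcl5 (rho = 0.424, adjusted permutation p = 0.18).

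The receptor genes Cxcr2 and Csf3r varied together (r = 0.874, rho = 0.849, adjusted permutation p = 0.000169 for r, r = 0.804 without the farthest 2 libraries). Cxcr2 also varied with S100a8 (r = 0.691), S100a9 (0.700), Lcn2 (0.685) and Cxcl5 (0.671), with adjusted permutation p from 0.00566 to 0.00661. Csf3r varied with S100a8 (r = 0.589), S100a9 (0.616) and Lcn2 (0.585), with adjusted permutation p from 0.0169 to 0.0235. With the ligand gene Csf3, r was 0.222 for Cxcr2 (adjusted permutation p = 0.395) and 0.192 for Csf3r (adjusted permutation p = 0.443). Csf3r had r = 0.195 with Cxcl2, but 0.593 without the farthest 2 libraries, so that value rested on 2 libraries. The difference between 2 correlations was not tested.

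**Figure D4:**
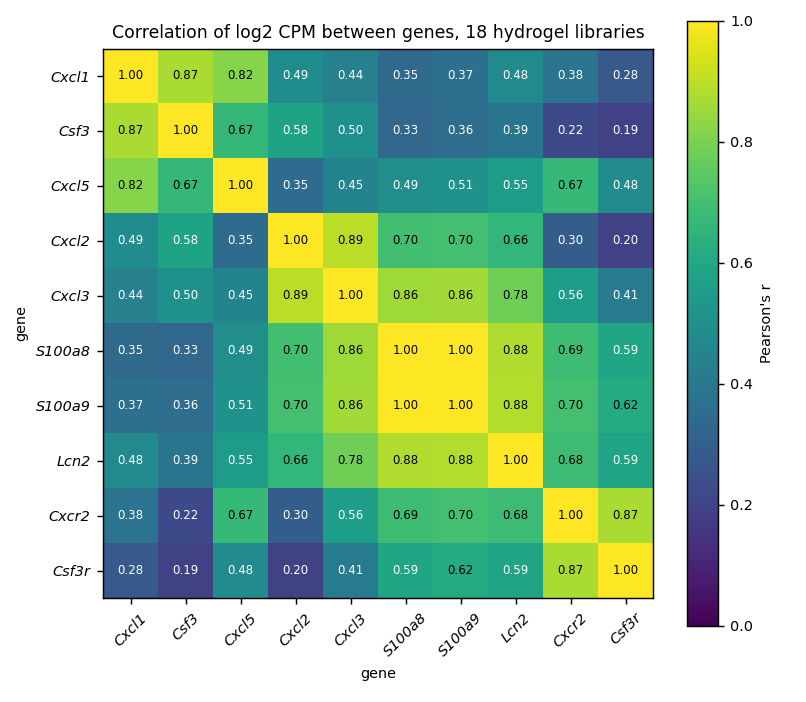
Pearson's r of log2 CPM between each pair of the 10 genes over the 18 hydrogel libraries, from 0 (dark) to 1 (bright), with genes ordered to place those with high values together. S100a8, S100a9, Lcn2, Cxcl3 and Cxcl2 form a bright block, as do Cxcl1, Csf3 and Cxcl5 and the pair of Cxcr2 and Csf3r. The blocks are not separate, since Cxcr2 has r = 0.691 with S100a8, 0.700 with S100a9, 0.685 with Lcn2 and 0.671 with Cxcl5. The lowest value, 0.19, is between Csf3 and Csf3r.

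Ratios of FPKM give these relations on the scale of levels. The ratio of S100a9 to S100a8, whose products pair in calprotectin, stayed between 0.845 and 1.05 in the 21 libraries, a range of 1.24-fold, while the level of S100a8 in FPKM spanned 13.4-fold. The ratio of Cxcl3 to Cxcl2 ranged from 0.212 to 0.942 (median 0.477). The ratio of Cxcl2 to Cxcl1 ranged from 0.250 in control replicate 3 to 13.4 in 8.4-GelMA/bFGF replicate 3, a range of 53.6-fold. Libraries of one group could differ, as in 8.4-GelMA/bFGF, with ratios of 1.47, 12.6 and 13.4.

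The make-up of the ligands therefore varied between wounds. Of the summed FPKM of Cxcl1, Cxcl2, Cxcl3 and Cxcl5, Cxcl2 held 13.9% to 57.5% (median 35.2%) and Cxcl5 held 15.3% to 57.1% (median 30.1%). Cxcl3 held 3.56% to 31.6% and Cxcl1 held 4.20% to 55.6%. In control replicate 3, where the 4 genes summed to 99.7 FPKM, Cxcl1 held 55.6%. Control replicate 2, where they summed to 2034 FPKM, had 7.42% as Cxcl1 and 43.3% as Cxcl2, and control replicate 1 (159 FPKM) had 13.1% and 31.7%. In 7.4-GelMA/bFGF replicates 1 and 2 and in 7.4-GelMA/aFGF replicate 2, Cxcl5 held 55.9% to 57.1%, and in 8.4-GelMA/bFGF replicates 2 and 3 Cxcl2 held 52.8% and 57.5%.

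**Figure D5:**
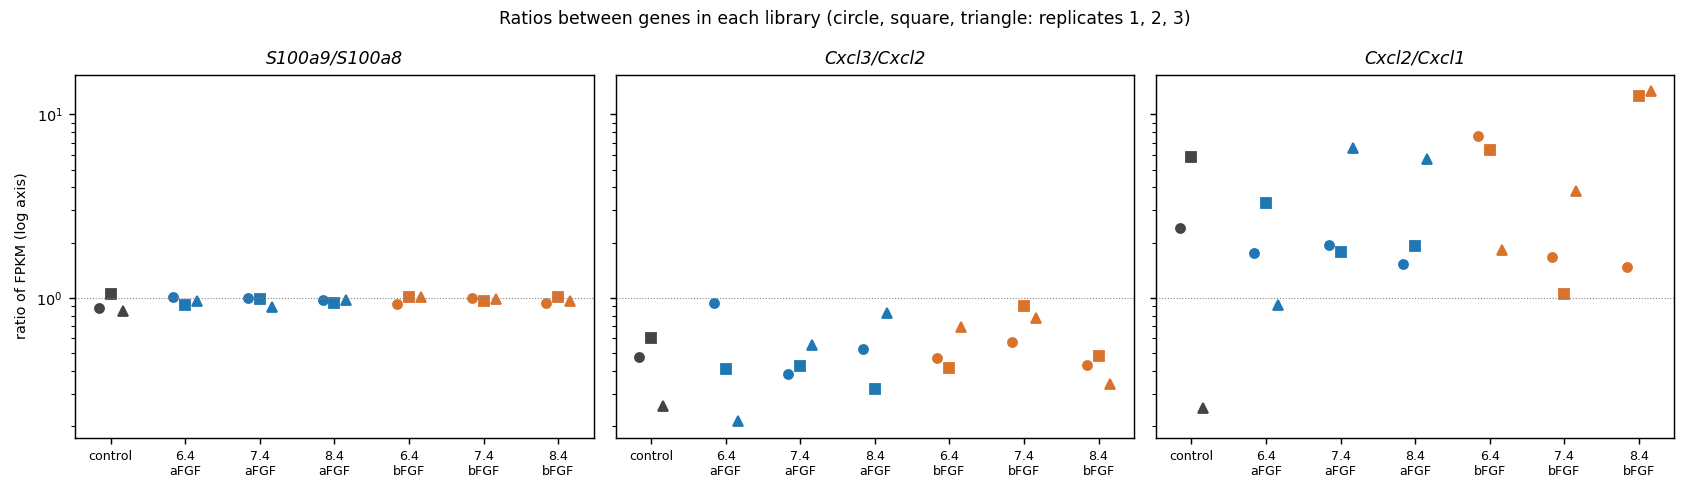
Ratio of FPKM between pairs of genes in each of the 21 libraries on a shared log axis, by group and with replicates 1, 2 and 3 as circles, squares and triangles. S100a9 over S100a8 stays at 0.845 to 1.05, Cxcl3 over Cxcl2 spans 0.212 to 0.942, and Cxcl2 over Cxcl1 spans 0.250 to 13.4.

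Among all genes that passed the filter, those whose log2 CPM was most like that of each of the 10 genes over the 21 libraries are given next. These genes were picked for that likeness, so their values are descriptions. Cxcl1 was most like Il6, which encodes interleukin 6 (r = 0.947, and 0.941 in the 18 hydrogel libraries), Phlda1 (0.923) and Coq10b (0.890). Cxcl2 was most like Nlrp3, the inflammasome sensor (0.960), Ptgs2, the inducible cyclooxygenase (0.959), and Il1b (0.958), with values of 0.909, 0.954 and 0.908 in the hydrogel libraries. Cxcl3 was most like Acod1, the itaconate-producing enzyme (0.946), Upp1 (0.942) and Slpi, the secretory leukocyte protease inhibitor (0.940).

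Csf3 was most like Zc3h12a, the RNase regnase-1 (0.935), Fosl2 (0.930) and Rnd1 (0.918). Cxcl5 was most like the zinc transporter gene Slc39a14 (0.939), Clec4d (0.937) and Serpinb2 (0.936). Cxcr2 was most like Nlrp12 (0.979), Cd300lf (0.976) and Gm38525 (0.968). Csf3r was most like Sirpb1b (0.966), and Nlrp12 (0.959) was also among its nearest genes. S100a8 and S100a9 shared Stfa2l1, Ifitm1 and Cstdc4 as their nearest 3 genes (0.951 to 0.961), and Lcn2 was most like Stfa2l1 (0.938), Trem3 (0.936) and Mcemp1 (0.934). In the 18 hydrogel libraries alone, the values of all these genes ran from 0.784 (Cxcl5 with Clec4d) to 0.954 (Cxcl2 with Ptgs2). Stfa2l1, Cstdc4 and Sirpb1b belong to families with close copies, among which reads may have been divided.

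Other chemokine and receptor genes, of the CXCR2 axis and of the separate CXCR4 axis, were described alongside. Ppbp, which encodes the platelet chemokine CXCL7, another CXCR2 ligand, was at 7.62, 11.0 and 7.19 CPM in control replicates 1, 2 and 3 and at 4.79 to 124 CPM (median 18.9) in the hydrogel libraries. Cxcl12, which retains neutrophils in bone marrow through the receptor encoded by Cxcr4, was at 679, 846 and 584 CPM in the control libraries and at 695 to 1086 CPM (median 859.9) in the hydrogel libraries. Of the 4 such genes measured, 0 were called against control with all control libraries, and 3 had an unadjusted p under 0.05 in edgeR, beside 16.7% of all genes.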

How the data were processed

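RNA-seq libraries of 21 mouse skin wounds, 3 in each of 7 groups, were used. The deposited count files hold raw reads assigned to each gene. The deposited FPKM values were made by the authors from these counts: each is the count over the library total and over 1 length that is the same in all libraries (checked on 12266 genes with at least 50 counts). The submitters' processing notes name genome build GRCm39, and the aligner, the counter and the annotation are not given in the sources used here. A RefSeq table of another build, which served for names only, held 18662 (99.2%) of the 18806 symbols. The kit kept strand, but whether the counting used it is not given.

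The main test was the quasi-likelihood test of edgeR (version 4.0.16, in R 4.3.3) on raw counts with TMM scaling and edgeR's filter on low counts. log2 CPM used a prior count of 2. Comparisons that span the groups used all libraries concerned, with a mean per group, and the others only the libraries compared. Calls needed an adjusted p (Benjamini-Hochberg, over all genes tested) under 0.05 and a log2 fold change beyond 0.58. Two-sided exact permutation tests of log2 CPM were run for single genes, and correlations used 100000 permutations. The scripts were tested on simulated data. Alternatives were DESeq2 (version 1.42.0, at default settings and with its outlier and independent filters off), RLE scaling, other filters, robust dispersion, a fit of 21 libraries, a block for the replicate number, no fold threshold, limma (version 3.58.1) on log2(FPKM + 1) or log2(FPKM + 0.1), and leaving out libraries.

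The 10 genes, the other lists and the comparisons were chosen with earlier results of these data known. Beyond the 10, the genes named were listed genes that were called, the 2 of a list with the highest mean FPKM, and the 3 genes most like each of the 10. One of these genes is not reported here. Ly6g, Sprr2d and Cd68 were singled out after their values had been seen, as were the called genes picked as examples. The spread between libraries of a group was larger than counting noise alone, and errors are SDs or SEs over libraries. The mice were different by the study's description, and whether a library holds both wounds of a mouse is not given. Comparisons that share a group are not independent.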

Additional observations from a re-analysis of the deposited data

How the results depend on the processing

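Of 278 refits of the 12 counts of called genes among the 10, 274 gave 0. The exceptions were hydrogels against control (0 to 8 when 1 library was left out, 8 without control replicate 2), aFGF against bFGF over all pH (0 to 1, with 1 without 6.4-GelMA/bFGF replicate 3) and aFGF against bFGF at pH 8.4 (2 with DESeq2 at either setting). Against control, other neutrophil genes called were 0 to 19 and inducers and regulators 0 to 7 when 1 library was left out, both highest without control replicate 2, and DESeq2 called 1 other neutrophil gene at either setting. The log2 fold change against control turned negative for Cxcl2 without control replicate 1 (-0.27), control replicate 3 (-0.30) or 7.4-GelMA/bFGF replicate 3 (-0.12). It did so for Cxcl3 without control replicate 1 (-0.41), control replicate 3 (-0.44), 6.4-GelMA/aFGF replicate 1 (-0.05) or 7.4-GelMA/bFGF replicate 3 (-0.26). With 1 library left out these values ran from -0.30 to 3.69 for Cxcl2 and from -0.44 to 4.02 for Cxcl3. Correlated pairs were 24 in the 18 hydrogel libraries and 45 in all 21. The cause of these changes was not tested.

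Replicate numbers did not pair the libraries: same-numbered libraries of 2 groups deviated together with r from -0.638 to 0.423 (median 0.00889), and 0 of 21 pairs of groups had every r over 0.1. With the replicate number as a block, 0 of the 10 genes were called in every comparison. Of the named genes outside the 10 that were refitted with the block, Il23a lost its call. Leaving out 7.4-GelMA/aFGF replicate 3, 8.4-GelMA/aFGF replicate 2 and 8.4-GelMA/bFGF replicate 2, in which earlier results of these data had shown genes of other tissues, called 0 of the 10.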

Other observations

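Genes of granulocyte precursors, cells normally confined to bone marrow, were low in most libraries. The summed level of these genes was 41.2, 11.8 and 14.8 CPM in control replicates 1, 2 and 3. It was 5.27 to 226 CPM in the hydrogel libraries. In control replicate 1, Ltf alone was at 28.8 CPM, while Ngp was at 0.211 and Mpo at 0.553 CPM. The highest sum was in 7.4-GelMA/aFGF replicate 3, where Ngp was at 87.1, Ltf at 57.7, Camp at 25.6, Mpo at 21.7 and Elane at 7.92 CPM. The same library held the highest level of the eosinophil granule genes Prg2 (18.6 CPM, median 0.441 over the 21 libraries) and Epx (201 counts, and at 0 in 17 libraries), and their part in the sum was not tested. In it, S100a8 was at 2398 CPM and Lcn2 at 653 CPM, both within the range of the other hydrogel libraries. These genes were singled out after their values had been seen.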
